A study of Mus musculus with 6 samples.

Results

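Cells of the early XX mouse gonad that held Nr5a1 transcripts but none of Foxl2, Upk3b or Cyp11a1 numbered 945 of 29398 deposited cell barcodes. They were 401 of 2388 barcodes (16.8%, 95% interval 15.3 to 18.4) at E11.5 (E, embryonic day) and 544 of 2640 (20.6%, 19.1 to 22.2) at E12.5. A barcode entered this set, whose cells are called the members here, when it had at least 500 detected genes, at most 10% mitochondrial transcript counts, at least 1 Nr5a1 count, 0 counts of Foxl2, Upk3b and Cyp11a1, and fewer than 3 summed counts of the germ cell genes Dazl, Ddx4, Dppa3, Dppa5a and Pou5f1. Each count is 1 UMI, a molecular tag that marks a captured transcript. The denominators are the barcodes that met the gene, mitochondrial and germ gene limits, and the remainder, 1987 at E11.5 and 2096 at E12.5, are called the other barcodes. The rule used measured values, so the levels of its own genes describe the choice and are no finding.

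The study profiled single cells of ICR mouse gonads at E10.5, E11.5, E12.5, E13.5 and E14.5, together with gonadal somatic cells of strain 129svj x C57BL/6J that were grown from embryonic stem cells with CHIR, BMP4, EGF, retinoic acid, PD0325901, SHH and FGF9 (Induced D6). Both libraries used most here came from freshly isolated XX gonads of ICR embryos, dissociated with papain, and their labels name no transgene or treatment. The labels do not give the number of embryos behind a library. With 1 library per stage, no comparison below has a replicate check, a stage and its library cannot be told apart, and the intervals cover counting error only.

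Nr5a1 encodes SF-1, a nuclear receptor required for the gonads and adrenal glands to form. In the genital ridge it is switched on in cells derived from the coelomic epithelium, together with the zinc finger factor Gata4 and the LIM homeobox factor Lhx9, both needed for the ridge to grow. Such bipotential somatic cells give rise to supporting cells, which in XX gonads become Foxl2-expressing pregranulosa cells, and to interstitial and steroidogenic cells. Upk3b marks the mesothelial surface and Cyp11a1 encodes the first enzyme of steroid synthesis.

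The 2 libraries held 41181565 and 40318026 UMIs. The median depth was 11291 UMIs per member against 11210 per other barcode at E11.5, and 9758 against 9074.5 at E12.5. Of the members, 16 at E11.5 and 20 at E12.5 carried a barcode sequence that another library of the series also held. Without all such barcodes the members were 16.7% and 20.5% of the barcodes.

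Detection of Nr5a1 rested on few molecules. A single Nr5a1 UMI was all that 264 of 401 members (65.8%) held at E11.5 and 382 of 544 (70.2%) at E12.5, while 50 and 57 held 3 or more, with a highest count of 10 and 5. The summed Nr5a1 level was 110 CPM (UMIs of the gene per 1000000 UMIs summed over the set) in members at E11.5 and 122 CPM at E12.5. The other barcodes had 25.7 and 23.9 CPM. Nr5a1-positive barcodes under the germ gene limit numbered 801 at E11.5 and 903 at E12.5. An Upk3b UMI was found in 202 and 154 of these, a Cyp11a1 UMI in 184 and 76, and a Foxl2 UMI in 91 and 159, and some barcodes count under more than 1 of these genes. Only 32 at E11.5 and 135 at E12.5 had Foxl2 with neither Upk3b nor Cyp11a1. The barcodes just outside the rule for want of an Nr5a1 UMI numbered 1111 and 1163.

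Background detection was gauged in barcodes with markers of cell types that should lack Nr5a1. After each barcode was thinned at random to 3000 UMIs, Nr5a1 was found in 5.67% of barcodes with at least 3 of 8 endothelial marker genes at E11.5 and in 6.33% at E12.5. Before thinning, their shares were 21.3% and 28.8%, at median depths of 21389 and 21973.5 UMIs. The same barcodes also had Lhx9 at 147 and 105 CPM and Gata4 at 30.4 and 21.2 CPM, so they are no clean background. Erythroid-marker barcodes held Nr5a1 in 1 of 79 and 0 of 21 before thinning, and leukocyte-marker barcodes in 2 of 26 and 1 of 10. Barcodes at or over the germ gene limit held Nr5a1 in 6.02% and 2.3% before thinning, and in 0.929% and 0.337% after it. Members kept an Nr5a1 UMI in 34.1% and 36.8% after thinning, and other barcodes in 4.95% and 4.94%. The other barcodes exclude the members by construction, while 16 of the 30 Nr5a1-positive endothelial-marker barcodes at E11.5 and 14 of 23 at E12.5 were members, so these shares are given side by side only.

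The label's other markers, Gata4 and Lhx9, were present in the members and only modestly above the rest of the gonad. Gata4 stood at 111.6 CPM (103.1 to 120.5) in members and 86.1 (82.7 to 89.6) in other barcodes at E11.5, and at 102.7 (95.1 to 110.9) against 85.2 (81.5 to 89.1) at E12.5. Lhx9 stood at 497 CPM against 375 at E11.5, a ratio of 1.32 (1.27 to 1.38), and at 364 against 335 at E12.5, a ratio of 1.09 (1.04 to 1.14). At 3000 UMIs, Gata4 was found in 28.3% of members and 19.9% of other barcodes at E11.5, and in 29.4% and 22.3% at E12.5. Without thinning, Gata4 was found in 69.6% and 64.2% of members. Lhx9 was found at 3000 UMIs in 66.4% of members against 51% of other barcodes at E11.5 and in 54.3% against 49.6% at E12.5, and without thinning in 86.8% and 81.8% of members. Endothelial-marker barcodes held Lhx9 in 20.6% and 17.7% at 3000 UMIs.

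How many members showed both further markers depended on depth. At 3000 UMIs, 83 of 399 members (20.8%, 16.9 to 25.1) at E11.5 and 97 of 541 (17.9%, 14.8 to 21.4) at E12.5 had both Gata4 and Lhx9, while 104 (26.1%) and 185 (34.2%) had neither. Without thinning, 260 of 401 (64.8%) and 310 of 544 (57%) had both, and 34 and 60 had neither. In Nr5a1-zero barcodes at 3000 UMIs both genes were found in 69 of 1084 and 119 of 1133, and neither in 60.9% and 48.6%. No marker of the rule tells progenitors from other Nr5a1-expressing cells, so the name rests on the rule. The levels below show a mixture of pregranulosa-like, stroma-like, epithelium-like and dividing cells among the members.

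Levels of several genes differed with the number of Nr5a1 UMIs a barcode held. At E11.5 Emx2, a homeobox factor of the urogenital ridge, stood at 109 CPM in Nr5a1-zero barcodes, 208 with 1 UMI, 253 with 2 and 286 with 3 or more. Fst, which encodes the activin antagonist follistatin, went from 109 through 167 and 284 to 439 CPM. Irx3, an Iroquois homeobox factor of pregranulosa cells, stood at 27.8, 57.6, 112.6 and 112.6 CPM. Tcf21, a helix-loop-helix factor of interstitial cells, went the other way, with 138, 89, 51 and 22.4 CPM. The E11.5 series for Emx2, Fst and Tcf21 were thus ordered by Nr5a1 UMI number.

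At E12.5 the order was absent for Fst and not complete for Tcf21. The E12.5 series of Emx2 and Irx3 and the E11.5 series of Lhx9 and Bmp2 are not listed here. Fst stood at 252, 331, 243 and 210 CPM for 0, 1, 2 and 3 or more Nr5a1 UMIs, so members with most Nr5a1 were not highest in Fst. Lhx9 stood at 272, 331, 390 and 468.5 CPM and Bmp2, a BMP ligand, at 47.5, 84.8, 120 and 159 CPM. Tcf21 stood at 131, 66, 26.6 and 28.3 CPM. Depth moved with the number of Nr5a1 UMIs: the median was 10321.5 UMIs in members with 1 and 19378 in those with 3 or more at E11.5, and 9528.5 and 16612 at E12.5. Its part in the CPM values was not tested.

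**Figure D1:**
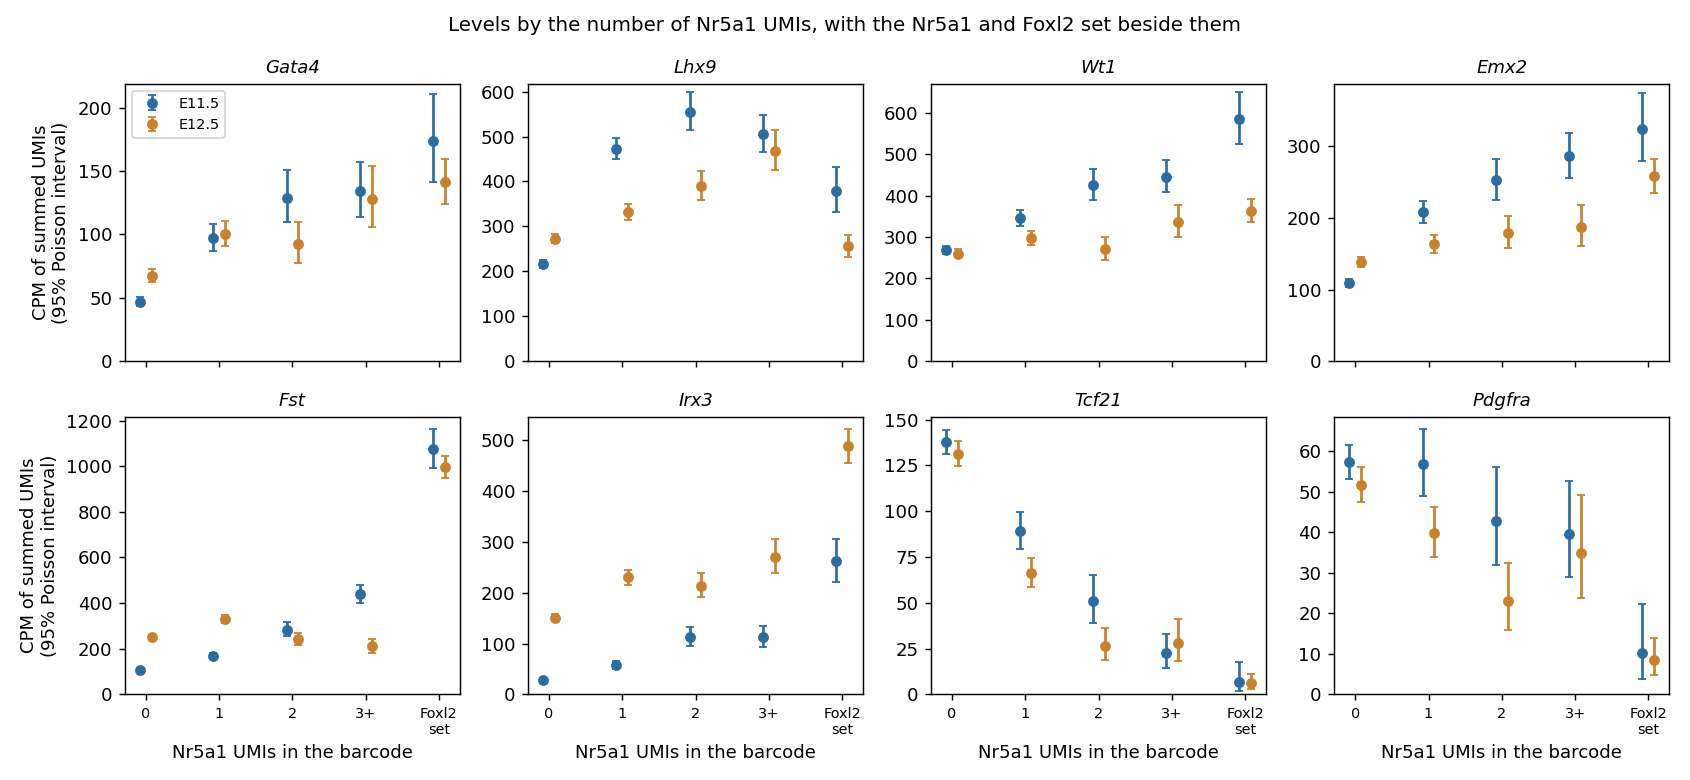
Summed level in CPM with the 95% Poisson interval (y axis) of 8 genes in barcodes with 0, 1, 2 and 3 or more Nr5a1 UMIs, and in the Nr5a1- and Foxl2-positive set (x axis), for E11.5 and E12.5. Tcf21 is highest in barcodes with 0 Nr5a1 UMIs (138 and 131 CPM), and Fst is highest in the Foxl2 set (1076 and 996 CPM).

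The members spread over most clusters of the gonad. Each library was clustered on its own without the rule's genes, and a cluster was called after a cell type only where a list of its markers applied. The pregranulosa-like clusters 2 and 7 at E11.5 held 153 members, 38.2% (33.4 to 43.1), against 25.3% (23.4 to 27.2) of the other barcodes. Such clusters at E12.5 (0, 4 and 5) held 281 members, 51.7% (47.4 to 55.9), against 38.8% (36.7 to 40.9). Coelomic epithelium-like clusters held 11.2% of members and 25.6% of other barcodes at E11.5, and 21.7% and 23.3% at E12.5. These include dividing clusters led by Ube2c, Ccnb1 and Cenpf (cluster 4 at E11.5 and cluster 1 at E12.5). The rule places all Upk3b-, Cyp11a1- and Foxl2-positive barcodes among the other barcodes, so the shares of each class follow in part from it. In the epithelium-like clusters 0 and 1 of E11.5, 184 of 272 and 108 of 137 barcodes held Upk3b or Cyp11a1. The stroma-like cluster 5 held 12.2% of members against 8.56% of other barcodes at E11.5, and the stroma-like clusters 3 and 6 held 10.3% against 15.6% at E12.5. Clusters named for both stroma and perivascular or smooth muscle markers went the other way at E11.5 (cluster 11, 1.5% of members against 9.86%) and held 5.51% against 7.35% at E12.5 (cluster 2). The E11.5 cluster 12 had such markers without the name and is given below.

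Unnamed clusters took 33.2% of the E11.5 members and 7.9% of those at E12.5. The E11.5 cluster 12, with Pdgfrb among its 10 leading genes and 12 of 15 stroma markers and 4 of 6 perivascular and smooth muscle markers, had 33 members. They were 8.23% of the E11.5 members and 13% of the barcodes of cluster 12, beside 16.8% members in the whole library. Another E11.5 cluster (3) was led by the mitotic genes Ube2c, Ccnb1 and Cenpf and held 39 members, 43.3% of its barcodes. A further one (8) was led by Cpa1, Ddit4l and Serpina3a and held 43 members, and its E12.5 counterpart by leading genes (10) held 23. A further pair (10 at E11.5, 11 at E12.5), with Pax8, Egfl6 and Sox9 among the 10 leading genes, held 18 and 20 members. At E11.5 3 members fell in the endothelium-like cluster, 11 in the leukocyte-like cluster and 1 in the erythroid-like cluster, and at E12.5 these were 13, 1 and 0. At resolution 2, 10 E11.5 members lay in a further cluster that the lists called endothelium-like, led by Ppbp, Etv2 and Pf4. Another 1 lay in a leukocyte-like cluster led by C1qb, so the leukocyte-like name of cluster 14 depends on the resolution. Ppbp, Etv2 and Pf4 are in none of the marker lists, so neither name rests on these leading genes. The 0 of 544 allows a share of up to 0.551%, the limit that 3 barcodes would give.

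**Figure D2:**
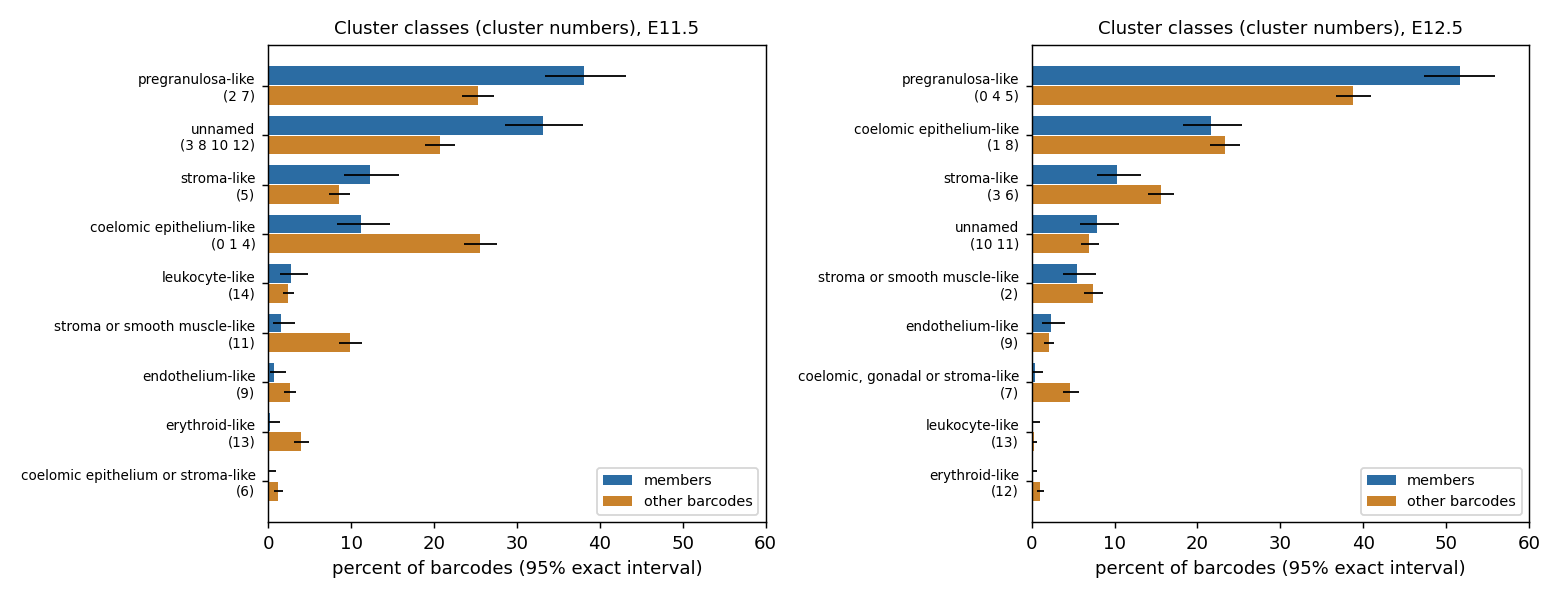
Percent of members and of other barcodes (x axis, exact 95% intervals) in each class of clusters, with cluster numbers in brackets, at E11.5 and E12.5. Pregranulosa-like clusters hold 38.2% and 51.7% of the members, and the remainder is spread over epithelium-like, stroma-like and unnamed clusters.

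Members of different clusters carried different programmes. Levels by cluster are a description, since the clusters were made from these genes. At E11.5 Nr5a1 ranged from 48.9 CPM (cluster 14) to 151.8 CPM (cluster 10) over the clusters with at least 10 members, and at E12.5 from 40.1 (cluster 9) to 144.2 CPM (cluster 4). In the E11.5 pregranulosa-like clusters 2 and 7, Fst stood at 923 and 416 CPM, the Wnt ligand Wnt4 at 417.5 and 326 CPM, and Kitl, which encodes the ligand of the Kit receptor, at 344 and 298 CPM, while Tcf21 stood at 1.4 and 5.8 CPM. In the stroma-like cluster 5 of the same library, Tcf21 stood at 287 CPM and Pdgfra, a growth factor receptor of mesenchyme, at 207 CPM, while Fst was not detected in the members. Lhx9 stood at 369, 553 and 413 CPM in the members of clusters 2, 7 and 5.

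The E12.5 clusters showed the same opposition of Fst and Tcf21. Members of pregranulosa-like cluster 0 had 1499 CPM of Fst, and those of stroma-like cluster 3 had 0 counts of it. Tcf21 was at 0 counts in cluster 0 and at 331.5 CPM in cluster 3. The largest single group of E12.5 members, 162 cells (29.8%), lay in cluster 4, where they made up 41.8% of the barcodes. These members had Fst at 211 CPM, Irx3 at 313 CPM, Bmp2 at 163.5 CPM, Gng13, a G protein gamma subunit gene, at 378.5 CPM and Lhx9 at 491 CPM. At E11.5 the largest group, 103 members (25.7%), lay in cluster 7.

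Members of the Pax8-led clusters had their own profile. At E11.5 the 18 members of cluster 10 had Pax8 at 221 CPM, Sox9 at 101 CPM, Wnt4 at 848 CPM and Nr0b1, an orphan nuclear receptor gene, at 139 CPM, with Lhx9 at 82.2 CPM. At E12.5 the 20 members of cluster 11 had Pax8 at 180 CPM, Sox9 at 130 CPM, Wnt4 at 502 CPM, Nr0b1 at 105 CPM and Lhx9 at 49.6 CPM. Pax8 was at most 25.1 CPM in the members of the other clusters with at least 10 members. Pax8 is a paired-box factor and Sox9 an SRY-box factor; levels of different genes are not compared with each other.

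The endothelium-like cluster 9 at E12.5 went against the label. Its 13 members had Nr5a1 at 40.1 CPM but Lhx9 at 2.2 CPM and Gata4 at 0 counts, with the endothelial gene Pecam1 at 114 CPM. Their median depth was 25254 UMIs, and 3 of them held 2 or more Nr5a1 UMIs. Members with at least 3 endothelial markers numbered 16 at E11.5 and 14 at E12.5, and the endothelium-like cluster of E11.5 held 3 members.

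**Figure D3:**
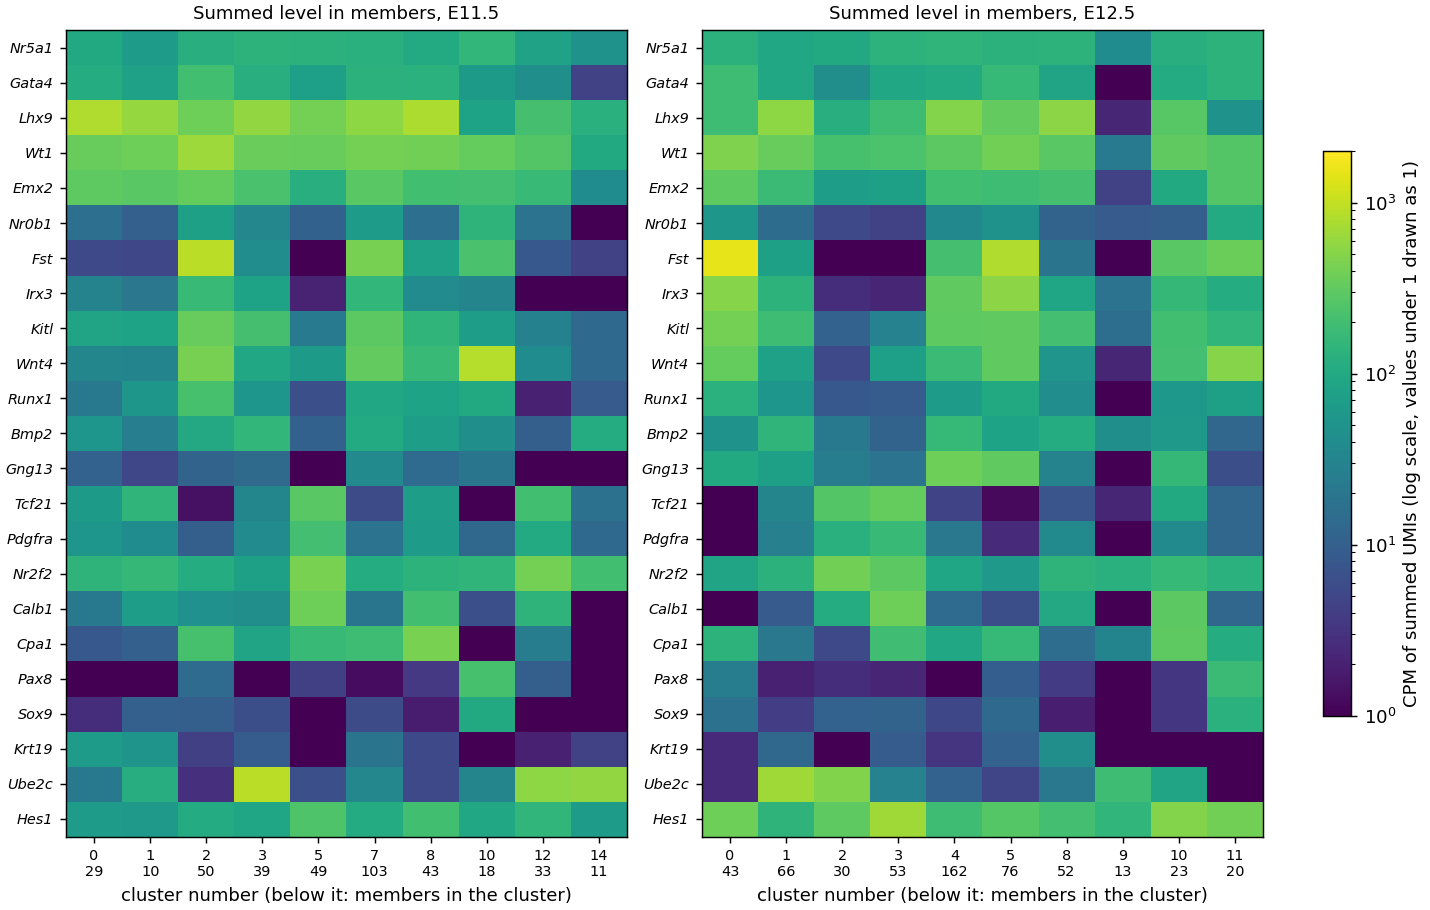
Summed level of 23 genes (rows) in the members of each cluster with at least 10 members (columns, cluster number above the number of members), as CPM on a logarithmic colour scale, for E11.5 and E12.5. Fst is bright in the pregranulosa-like clusters (923 CPM in E11.5 cluster 2, 1499 CPM in E12.5 cluster 0) and at 0 in the stroma-like ones, where Tcf21 is bright (287 and 331.5 CPM).

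Counted cell by cell at equal depth, members fell into a pregranulosa and a stroma state. At 3000 UMIs, 177 of 399 members (44.4%, 39.4 to 49.4) at E11.5 had UMIs of at least 2 of the 12 pregranulosa genes and of fewer than 2 of the 15 stroma genes. The reverse held for 120 (30.1%, 25.6 to 34.8), 2 or more of both lists for 58 and neither for 44 (11%). At E12.5 the counts were 296 of 541 (54.7%), 103 (19%), 87 (16.1%) and 55 (10.2%). Without thinning, genes of both lists were found in 254 of 401 members (63.3%) and 310 of 544 (57%), so the split at 3000 UMIs does not show that the lists exclude each other. The Nr5a1- and Foxl2-positive set had 26 of 32 and 110 of 135 barcodes in the pregranulosa state, and 0 in the stroma state, which allows shares of up to 9.38% and 2.22% by the same limit of 3 barcodes. Nr5a1-zero barcodes lay in the stroma state in 54.6% and 43.3%.

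**Figure D4:**
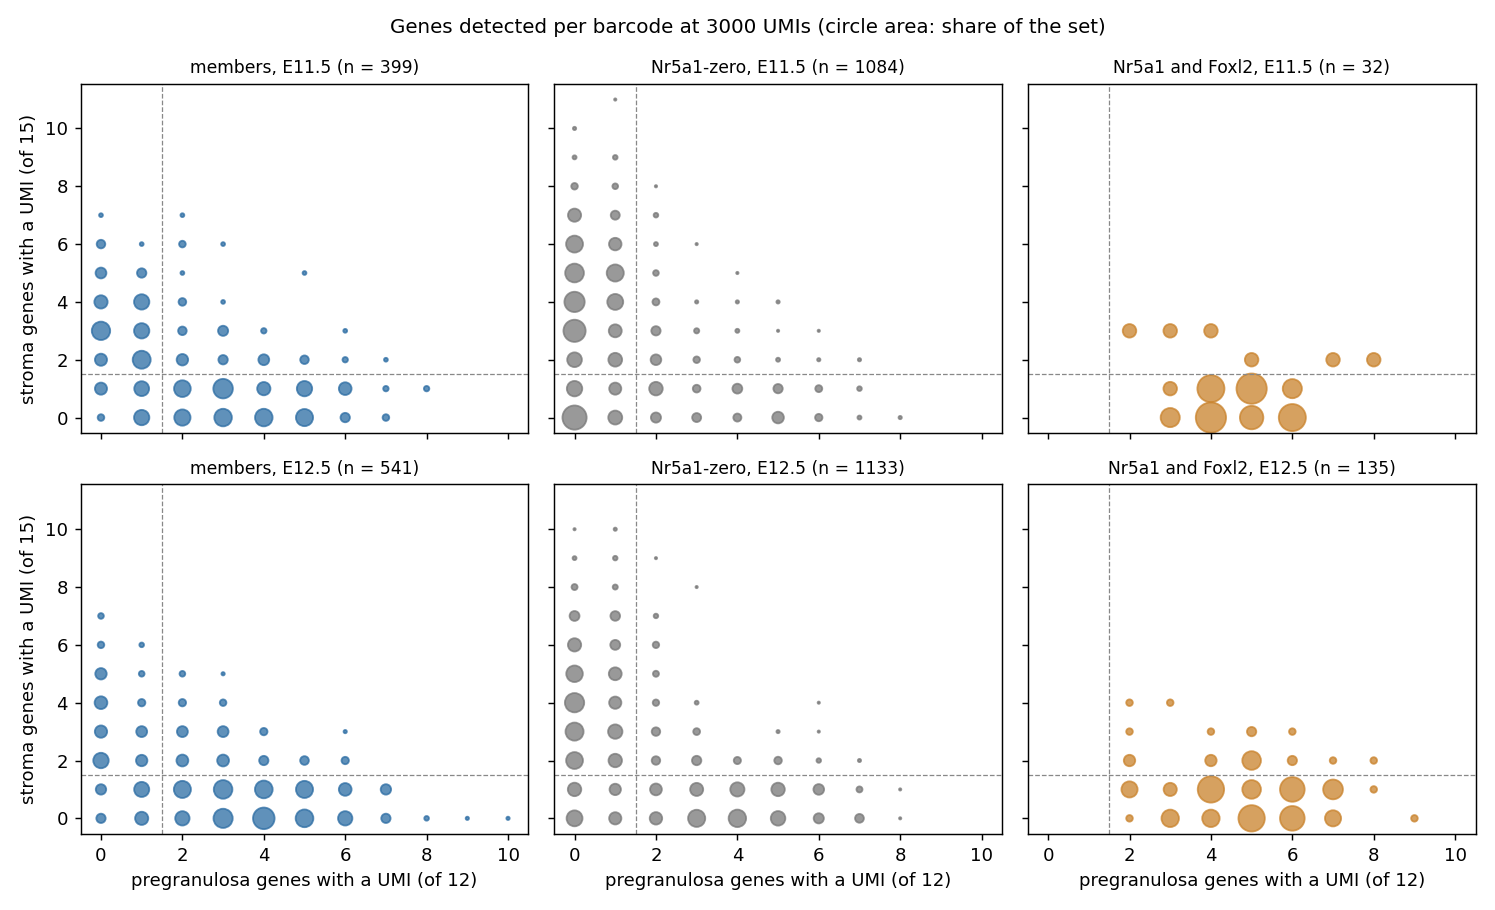
Number of the 12 pregranulosa genes (x axis) and of the 15 stroma genes (y axis) with a UMI per barcode at 3000 UMIs, for members, Nr5a1-zero barcodes and the Nr5a1- and Foxl2-positive set at E11.5 and E12.5; circle area is the share of the set and dashed lines mark 2 genes. Members fill both arms (44.4% and 30.1% at E11.5), and the Foxl2-positive set has 0 barcodes in the upper left.

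The genes most variable among the members at 3000 UMIs, by the ratio of variance to mean, were Malat1 (9.19), Cdkn1c (8.92), Hist1h2ap (6.87), Pnliprp2 (6.76) and Actb (6.33) at E11.5. At E12.5 they were Malat1 (12.9), Actb (7.7), Cdkn1c (5.26), Tmsb4x (5.01) and Cpa1 (4.51). Cdkn1c encodes an inhibitor of the cell cycle and Hist1h2ap a histone made during DNA synthesis. Pnliprp2, a lipase-related gene, was found in 9.52% of E11.5 members with up to 16 UMIs in a cell, and Cpa1, a carboxypeptidase gene, in 13.1% of E12.5 members with up to 15.

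Members and other barcodes differed little in summed expression. Of 5845 genes with at least 20 CPM in either sum at E11.5, 2 were at least 2-fold higher in members (0.0342%) and 33 at least 2-fold lower (0.565%). Of 5485 at E12.5, 3 were higher (0.0547%) and 21 lower (0.383%). This fold is the call used throughout, with no test behind it, and the rule's genes are left out. The genes called higher were Calb1 and Bace2 at E11.5 and Procr, Ctla2a and Vsnl1 at E12.5. No gene was called higher in both libraries, and 11 were called lower in both. The latter are the stromal matrix and signalling genes Col1a1, Dcn, Ptn and Cxcl12, the coelomic epithelium gene Tm4sf5 and 6 haemoglobin genes. The other barcodes hold all Upk3b-positive barcodes by the rule, so a lower level of Tm4sf5 in members can follow from it. Ptn, which encodes the growth factor pleiotrophin, stood at 155 CPM in members and 323 in other barcodes at E11.5 (2.09-fold lower), and at 46.6 against 111 CPM at E12.5 (2.38-fold lower).

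Among more abundant genes, a few had ratios in favour of members that mostly stayed under the line. Bmp2 stood at 77.7 CPM against 43.7 at E11.5 (ratio 1.78, 1.59 to 1.98) and at 103 against 57.3 at E12.5 (1.8, 1.64 to 1.98). Calb1, a calcium-binding protein gene, had ratios of 2.26 (2.02 to 2.52) and 1.52 (1.34 to 1.71), and Ddit4l ratios of 1.66 and 1.71. Serpina3a had ratios of 1.92 and 1.46. Cdkn1a, which encodes the cell cycle inhibitor p21, had a ratio of 1.56 at E12.5. Of these, Calb1 at E11.5 passed the 2-fold line.

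None of the 8 gonadal primordium regulators measured at E11.5, nor of the 7 at E12.5, was called in either direction, with median log2 ratios of 0.26 and 0.01 beside 0.03 and -0.02 over all genes tested. Wt1, a zinc finger factor of the urogenital ridge, had 382 CPM in members and 376 in other barcodes at E11.5, and 296 against 305 at E12.5. Emx2 had ratios of 1.18 and 0.9, and Nr0b1 of 1.38 and 1.1. Of 9 pregranulosa genes measured in each library, 0 were called (medians 0.38 and 0.19). Kitl had ratios of 1.41 and 1.28 and the Wnt ligand gene Wnt6 of 1.51 and 1.34, while Fst had 0.95 and 0.78. The other barcodes hold all Foxl2- and Cyp11a1-positive barcodes by the rule, so ratios of such genes can follow in part from it. Of the stroma list, 2 of 12 and 2 of 11 were called lower, Col1a1 and Dcn in both libraries. Of the glycolysis and hypoxia genes, 12 of 13 and 10 of 12 lay above 1 and 0 were called, with medians of 0.31 and 0.24.

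RNA of other cell types was part of this comparison. The 9 erythroid genes summed to 1619 CPM in members and 32809 in other barcodes at E11.5, and to 44.2 against 11591 CPM at E12.5. The 8 endothelial genes, all detected in members, summed to 202 against 224 CPM and to 198 against 157 CPM. The 8 leukocyte genes summed to 11.9 against 73 CPM and 16.4 against 27.4 CPM. Mesonephric genes summed to 30 CPM in members and 29.2 in other barcodes at E11.5, with Lhx1, Cdh16, Cdh1 and Sim1 at 0 in members, and to 23.7 CPM in both sets at E12.5. When the other barcodes were weighted to the members' makeup of clusters, an alternative chosen after the data were seen, 13 genes were called at E11.5 and 5 at E12.5 in place of 35 and 24.

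Against the Nr5a1-zero barcodes that met the rest of the rule, the members differed far more at E11.5 than at E12.5 by count of calls. Of 6007 genes tested at E11.5, 148 were higher in members (2.46%) and 198 lower (3.3%). Of 5555 at E12.5, 4 were higher (0.072%) and 81 lower (1.46%). At E11.5 Gata4 (2.38-fold, 2.13 to 2.67), Lhx9 (2.3, 2.18 to 2.42) and Emx2 (2.15, 1.99 to 2.32) were among the genes called higher. At E12.5 their ratios were 1.52, 1.34 and 1.23, under the line. Bmp2 was the single gene called higher in both, at 2.85-fold (2.47 to 3.29) and 2.17-fold (1.93 to 2.44).

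In that comparison 7 of 9 pregranulosa genes were called higher in members at E11.5 and 1 of 9 at E12.5, with medians of 1.41 and 0.52 beside 0.05 and -0.01 over all genes. Irx3 stood at 80.5 against 27.8 CPM (2.89-fold), Wnt6 at 246 against 88.6 (2.78-fold), Runx1, a transcription factor of early supporting cells, at 74.7 against 27.9 (2.68-fold) and Kitl at 184 against 69.1 (2.66-fold). The keratin genes Krt7 and Krt8 of the coelomic epithelium were also called higher, at 2.21-fold and 2.63-fold. Genes called lower in both libraries numbered 69 (34.8% of the E11.5 and 85.2% of the E12.5 calls). They include the stromal matrix genes Col1a1, Col1a2, Col3a1, Col6a1, Col6a2 and Dcn, Tcf21, the pericyte genes Pdgfrb and Rgs5, and the endothelial genes Pecam1 and Plvap. Tcf21 stood at 67.4 against 138 CPM at E11.5 and at 51.9 against 131 CPM at E12.5 (2.53-fold lower). The Nr5a1-zero barcodes held far more blood and vessel RNA, with the erythroid genes at 73162 and 24738 CPM and the endothelial genes at 380 and 266 CPM, whose part in these counts was not tested.

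The set that differs from the members by the Foxl2 term of the rule alone, Nr5a1-positive cells with a Foxl2 UMI, was small, with 588167 and 1784691 UMIs in its 32 and 135 barcodes. Its median depth was 14438.5 UMIs against 11291 in members at E11.5, and 9529 against 9758 at E12.5. Members were higher in 364 of 6193 genes at E11.5 (5.88%) and lower in 282 (4.55%), and at E12.5 higher in 155 of 5729 (2.71%) and lower in 149 (2.6%). The calls shared by both libraries were 119 higher (32.7% of the E11.5 and 76.8% of the E12.5 calls) and 66 lower (23.4% and 44.3%). No gene was called in opposite directions.

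Some pregranulosa genes were lower in members. In each library 4 of 10 measured were called lower and 0 higher, with medians of -0.97 and -0.86 beside 0.03 and -0.01 over all genes. Within the pregranulosa-like clusters alone, 2 of 10 at E11.5 and 1 of 11 at E12.5 were called lower, with medians of -0.46 and -0.38. Fst stood at 247 against 1076 CPM at E11.5 (4.35-fold lower) and at 294 against 996 at E12.5 (3.39-fold lower). Irx3 stood at 80.5 against 262 CPM and at 233 against 488 CPM. Rspo1, which encodes an enhancer of Wnt signalling, stood at 127 against 267 CPM and at 110 against 242 CPM. Wnt4 was called lower at E12.5, with 158 against 370 CPM, and Runx1 at E11.5, with 74.7 against 155 CPM. Sprr2d, Pglyrp1 and Utf1 were also among the genes called lower in both.

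Gata4 was lower in members than in the Foxl2-positive set without reaching the line, at 0.64 (0.52 to 0.80) and 0.73 (0.63 to 0.84), and Lhx9 was higher, at 1.31 (1.14 to 1.51) and 1.42 (1.29 to 1.58). Wt1 had ratios of 0.65 and 0.82. Of the 8 gonadal primordium regulators measured in each library, Tcf21 alone was called, in the higher direction.

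Of the stroma list, 7 of 11 genes measured at E11.5 and 4 of 10 at E12.5 were called higher in members. The list medians were 2.3 and 0.71, beside 0.03 and -0.01 over all genes, of which 5.88% and 2.71% were called higher. Tcf21 and Pdgfra reached 20 CPM through the members alone, so these counts follow in part from the filter. Tcf21 stood at 67.4 against 6.8 CPM (9.91-fold, 3.84 to 36.6) and at 51.9 against 6.2 CPM (8.42-fold, 4.65 to 17). Pdgfra stood at 50.3 against 10.2 CPM and at 35.3 against 8.4 CPM. Within the pregranulosa-like clusters alone, 1 of 4 stroma genes measured was called higher at E11.5 and 1 of 6 lower at E12.5. Tcf21 there had a log2 ratio of -0.68 at E11.5, with both sets below 20 CPM. The whole Foxl2-positive set held only 4 Tcf21 counts at E11.5, so this direction is not resolved. The restriction to these clusters was chosen after the data were seen.

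Of the endothelial genes, 4 of 4 measured at E11.5 and 3 of 3 at E12.5 were called higher in members. These genes reached 20 CPM through the members, so such a count was close to fixed by the filter. Cldn5, a tight junction gene of vessels, stood at 43.5 CPM in members and 0 counts in the Foxl2-positive set at E11.5, at least 8.52-fold higher against a floor of 3 counts over the set, and at 41.5 against 2.2 CPM at E12.5. The endothelial list summed to 202 CPM in members against 30.6 CPM, and to 198 against 35.9 CPM. The 16 and 14 members with at least 3 endothelial markers hold part of this RNA; their part was not tested.

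Mitotic genes were higher in members than in the Foxl2-positive set. All 18 measured genes of the G2/M list were called higher in members at E11.5 and all 16 at E12.5, with medians of 2.96 and 2.01, and as with the endothelial genes the 20 CPM were mostly reached through the members. Ube2c, a ubiquitin-conjugating enzyme of mitotic exit, stood at 232 against 17 CPM (13.6-fold, 7.39 to 28.5) and at 157 against 40.3 CPM (3.9-fold, 3.07 to 5.03). Top2a, which encodes a DNA topoisomerase, stood at 169 against 23.8 CPM and at 125 against 26.9 CPM. Of 13 S phase genes, 5 and 4 were called higher, and all 13 lay above 1 in both libraries. Against the other barcodes as a whole, 0 of the 18 and 0 of the 16 G2/M genes were called, with medians of -0.04 and -0.3.

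The clusters were made from these genes too, so a restriction to clusters that hold few dividing cells removes G2/M RNA by construction. Within the pregranulosa-like clusters, 5 G2/M genes reached 20 CPM in either set at E11.5, of which 2 were called higher and 1 lower (median 0.96), and none reached it at E12.5. Ube2c in members ranged from 2.8 CPM (cluster 2) to 905 CPM (cluster 3) at E11.5 and from 0 (cluster 11) to 673 CPM (cluster 1) at E12.5. The dividing clusters 3 at E11.5 and 1 at E12.5 held 39 and 66 members, and 1 and 3 of the Foxl2-positive barcodes.

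The promoters of these mitotic genes are shown because the list moved together. Of the 19 listed genes, 17 have a promoter in the RefSeq table for GRCm38.p6. In the 250 bases before the start, on either strand, CCAAT (the CCAAT box) was found in 15 of 17 (88.2%) and in 33.8% of all 32851 promoters, and TTTGAA (the CHR element of cell cycle genes) in 7 of 17 (41.2%) and in 16% of all. Both were found in 7 of 17 and in 5.55% of all. Letters of other factor classes were searched too: CAAGGTCA (the NR5A1 class) was in 0 of 17 and 1.33% of all, AGATAA (the GATA class) in 1 of 17 and 9.99%, and TAATTA (the LIM homeobox class) in 0 of 17 and 4.84%. A match is a description of letters and not a site shown to be bound, and this search was chosen after the values were seen. The last 100 bases before the start are given 5′ to 3′ on the gene's strand, with both motifs and their reverse complements in capitals.
Top2a (chr11:99024190-99024289, - strand, GRCm38.p6): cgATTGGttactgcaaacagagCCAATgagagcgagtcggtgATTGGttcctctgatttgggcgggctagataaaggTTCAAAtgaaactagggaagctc
Kif11 (chr19:37376282-37376381, + strand, GRCm38.p6): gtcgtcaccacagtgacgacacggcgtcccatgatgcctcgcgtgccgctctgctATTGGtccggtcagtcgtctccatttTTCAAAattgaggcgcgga
Mki67 (chr7:135716380-135716479, - strand, GRCm38.p6): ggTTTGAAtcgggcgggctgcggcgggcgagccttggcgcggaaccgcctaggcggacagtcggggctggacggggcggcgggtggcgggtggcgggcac
Ccnb2 (chr9:70421555-70421654, - strand, GRCm38.p6): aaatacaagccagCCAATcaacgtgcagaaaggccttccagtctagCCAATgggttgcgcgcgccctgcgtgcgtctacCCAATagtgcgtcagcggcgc
Top2a has both motifs near its start, with the TTTGAA letters 23 bases before it and 3 CCAAT matches upstream. In members over the Foxl2-positive set, Top2a had ratios of 7.11 and 4.64. Kif11, a mitotic motor gene, has 1 of each, and did not reach 20 CPM in either set. Ccnb2, which encodes cyclin B2, has 3 CCAAT matches and no TTTGAA in this window, with ratios of 3.63 and 4.99. Mki67, the proliferation marker, has TTTGAA 98 bases before the start and no CCAAT match in the printed 100 bases, with ratios of 3.41 and 6.3.

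**Figure D5:**
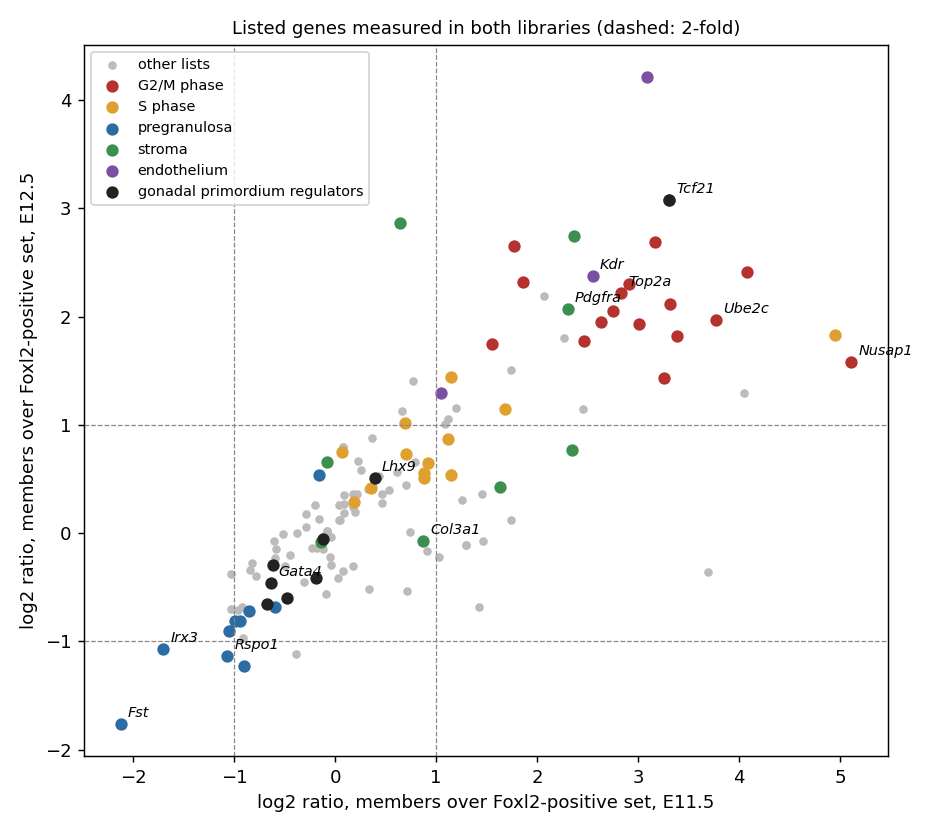
log2 ratio of members over the Nr5a1- and Foxl2-positive set at E11.5 (x axis) and E12.5 (y axis) for listed genes measured in both libraries, coloured by list, with dashed lines at 2-fold. G2/M genes lie in the upper right (medians 2.96 and 2.01) and pregranulosa genes in the lower left, with Fst lowest; Tcf21 is in 2 lists and drawn in black.

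Between the stages, 44 of 5764 genes were higher in E12.5 members (0.763%) and 56 lower (0.972%). The median over all genes was -0.17 on the log2 scale. Measured relative to it, 62 genes passed the line upwards and 30 downwards. Gng13 stood at 15.7 CPM at E11.5 and 184 at E12.5 (11.7-fold, 9.46 to 14.7) and Cst12, a cystatin gene, at 16.1 and 82.9 CPM (5.16-fold, 4.13 to 6.51). Irx3 stood at 80.5 and 233 CPM (2.89-fold, 2.6 to 3.22), the metallothionein gene Mt2 at 18.3 and 60.4 CPM (3.3-fold), and Hes1, a transcriptional repressor and Notch target, at 123 and 261 CPM (2.12-fold, 1.94 to 2.32). All 5 lay well above the median shift.

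Blood RNA differed most between the members of the libraries: 6 of 6 measured erythroid genes, all haemoglobins, were called lower in E12.5 members (median -5.42). The erythroid list summed to 1619 CPM at E11.5 and 44.2 CPM at E12.5. The erythroid-like cluster held 1 member at E11.5 and 0 at E12.5. These calls may rest on that 1 barcode, whose part in the sum was not tested. With haemoglobins left out, the genes lower at E12.5 included Ptn (155 to 46.6 CPM, 3.32-fold), Pnliprp2 (99.3 to 30.7 CPM, 3.24-fold), the transglutaminase gene Tgm3 (3.22-fold), Serpini1 (3.1-fold), Serpinb6b (2.69-fold), Gstp1 (2.67-fold), the lipoprotein lipase gene Lpl (2.49-fold) and the transcription factor gene Cebpd (2.44-fold). The glycolytic enzyme gene Eno1 stood at 1078 and 482 CPM (2.24-fold lower). Serpinb6b, Gstp1 and Eno1 have near-identical relatives, among which short reads can be split. Of 13 glycolysis and hypoxia genes, 2 were called lower, Eno1 and Pfkl, and 12 lay below 1, with a median of -0.53.

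The label's own markers did not pass the line between stages. Gata4 had a ratio of 0.92 (0.82 to 1.03), Lhx9 of 0.73 (0.69 to 0.77), Wt1 of 0.78 and Emx2 of 0.73, beside the median shift of -0.17. None of 8 gonadal primordium regulators was called (median -0.41), nor any of 18 G2/M genes (median -0.55). Of 11 stroma genes, Col1a1 and Dcn were called lower, and of 9 pregranulosa genes Irx3 was called higher.

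Several stage differences were also seen within classes of clusters, and values are given for some genes only. In pregranulosa-like members, Gng13 went from 28.7 to 327 CPM (11.4-fold), Cst12 from 26.9 to 121 CPM (4.49-fold) and Irx3 from 160 to 396 CPM (2.47-fold). Hes1 was 2.16-fold (1.87 to 2.51) higher at E12.5 in pregranulosa-like members and 2.76-fold (2.23 to 3.45) higher in stroma-like members. Pnliprp2 was 4.7-fold lower and Tgm3 3.87-fold lower in pregranulosa-like members. Lhx9 had a ratio of 0.82 (0.76 to 0.89) in pregranulosa-like members and was 2.28-fold (1.75 to 2.98) lower in stroma-like members, going from 413 to 181 CPM. The difference between these 2 ratios has no test, with 1 library per stage.

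The same rule picked 38 of 6241 barcodes (0.609%) at E10.5, 353 of 3020 (11.7%) at E13.5, 295 of 3105 (9.5%) at E14.5 and 1542 of 7510 (20.5%) in the induced cells. Gata4 stood at 28.3 CPM in the E10.5 cells and between 102.7 and 112.6 CPM in the 4 later gonad stages. In stage order, Lhx9 was measured at 153, 497, 364, 215 and 200 CPM. Irx3 stood at 17, 80.5, 233, 341 and 327 CPM, Hes1 at 53.7, 123, 261, 516 and 726 CPM, while Lgr5, a receptor for R-spondins, had 0 counts at first and then 3.8, 19.7, 48.3 and 63.3 CPM. Hes1 was thus ordered by stage over these libraries, and Lgr5 from E11.5 on. The 0 counts of Lgr5 at E10.5 allow up to 10.4 CPM, so its first step is not resolved.

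Induced cells picked by the rule stood apart from the gonad cells in several genes. They had 201 CPM of Nr5a1, 761 of Wt1 and 147 of Gata4, but 61.8 of Lhx9 and 32.6 of Fst. Pax8 stood at 89.8 CPM and Sox9 at 56.6 CPM, where the E11.5 and E12.5 members had 10.3 and 8.5 CPM of Pax8 and 7.2 and 9.9 CPM of Sox9. Bmp2 stood at 17.6 CPM in induced cells, against 77.7 to 116 CPM in the gonad cells from E11.5 to E14.5. It was at 0 counts in the 38 cells of E10.5, which allows up to 10.4 CPM.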

How the data were processed

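The deposited files hold UMI counts per gene and barcode for 6 libraries, made by the submitters with Cell Ranger 3.0.2 on mm10, per the submitters' processing notes, from Chromium 3′ libraries, per the labels' protocols. Totals were 41181565 UMIs (E11.5) and 40318026 (E12.5).

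From these counts, UMIs were summed over each set and scaled to CPM (Python 3.11.15, numpy 2.4.6, scipy 1.17.1). Levels have exact Poisson intervals, ratios exact conditional binomial intervals and shares Clopper-Pearson intervals, all at 95%. With 1 library per group no test was made, and a call is at least 2-fold with 20 CPM in either sum. A level of 0 in a ratio was set to 3 counts. The ratio script was tested on simulated data.

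Leiden clusters (scanpy 1.11.5, leidenalg 0.10.2) used 2000 variable genes without the rule's genes, 30 components, 15 neighbours and resolution 1. Doublets were not removed in the main analysis, because Scrublet's threshold called 0.404% and 0.185% of barcodes. Removing the highest scores was tried as an alternative. Libraries other than E11.5 and E12.5 are described only.

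Named genes are the 10 largest ratios in each direction with at least 50 CPM (against other barcodes, called in both libraries), the 5 most variable, the 4 largest called ratios of each list in each direction, and a set of key genes. Other genes named, those below 50 CPM, those of cluster profiles and those called in 1 library only included, were chosen after their values were seen. The members and lists were chosen with earlier results of these data known. A planned motif search in promoters of genes called higher in both libraries had no such gene. Nr5a1 and Gata4 promoter sequences were not used here. Results for some genes are not reported here.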

Additional observations from a re-analysis of the deposited data

How the results depend on the processing

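Of 123 recomputed shares and counts, 74 stayed within their interval or within 1.5 times. Requiring 2 Nr5a1 UMIs left 5.74% and 6.14% of barcodes as members (E11.5, E12.5), with 136 and 72 genes called against other barcodes, 600 and 187 against Nr5a1-zero barcodes, and 201 between stages. Applying the rule to counts thinned to 5000 UMIs gave 11.8% and 15.5%, with 87 genes against others, 200 against Nr5a1-zero barcodes (both E11.5), and 1083 and 648 against the Foxl2-positive set. There the E11.5 log2 ratio of Irx3 turned to 0.32. Equal weight per cell gave 69 against others at E11.5, and weighting to the members' clusters 13 and 5. In pregranulosa-like clusters alone, 345 and 86 were called against the Foxl2-positive set, and Tcf21 turned to -0.68 at E11.5, on few counts. The causes of these shifts were not tested.

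The counts follow the thresholds by construction, from main values of 35 and 24 (others), 346 and 85 (Nr5a1-zero), 646 and 304 (Foxl2-positive) and 100 (stages). A minimum of 1 CPM gave 660 and 608, 1787 and 988, 3440 and 2251, and 1079. A minimum of 50 CPM gave 16 and 11, 162 and 28, 245 and 111, and 59. A 1.5-fold line gave 131 and 100, 778 and 270, 1670 and 963, and 455. Gata4 was found in 46.5% and 43.5% of members at 6000 UMIs and in 69.6% and 64.2% without thinning, and Lhx9 in 81% and 76.9%, and 86.8% and 81.8%. The pregranulosa-like share of E12.5 members was 56.4% at resolution 0.5 and 42.1% at resolution 2. Of 776 log2 ratios of single genes, 28 shifted by more than 1.5-fold. Another 2, given above, were at least 2-fold in the main analysis and changed sign. Sign changes of smaller ratios were not counted apart. No paired analysis was possible because each stage has 1 library.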

Other observations

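The Nr5a1-positive barcodes left out of the members for Upk3b (202 at E11.5, 154 at E12.5) and for Cyp11a1 (184 and 76) lay on either side of the members in several genes. The 2 sets overlap and had no Foxl2 limit. Of 91 and 159 Nr5a1-positive barcodes with Foxl2, 32 and 135 had neither Upk3b nor Cyp11a1, so the remainder lie in these sets. The part of Foxl2-positive cells in the values below was not tested. Lhx9 stood at 598 and 540 CPM in the Upk3b barcodes, 497 and 364 in members, and 371 and 238 in the Cyp11a1 barcodes. Fst went the other way, at 90.6 and 80.7 CPM, 247 and 294, and 706 and 900.5. Wnt4 stood at 110 and 66.7 CPM, 206 and 158, and 536 and 469 in the same order. Krt19, a keratin gene of epithelia, stood at 48 and 48.9 CPM in the Upk3b barcodes, 13.8 and 8.7 in members, and 10.1 and 11.1 in the Cyp11a1 barcodes.

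Star, which encodes the cholesterol transporter of steroidogenic cells, stood at 19.4 and 32.4 CPM in the Cyp11a1 barcodes and at 15.4 and 12.2 CPM in members. Ube2c stood at 51.9 and 7.1 CPM in the Cyp11a1 barcodes, 232 and 157 in members, and 335 and 405.5 in the Upk3b barcodes. Median depth was 19599.5 and 17420.5 UMIs in the Upk3b barcodes and 19792 and 10242.5 in the Cyp11a1 barcodes, against 11291 and 9758 in members. The part of depth in these values was not tested.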
